A study of Homo sapiens with 9 samples.

Results

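The respiratory chain genes encoded in the nucleus were followed across 9 polyA+ RNA-seq libraries of ALL-SIL cells. Members were the protein-coding nuclear genes whose GENCODE symbol begins with NDUF, UQCR, ATP5 or COX followed by a digit, together with SDHA, SDHB, SDHC, SDHD, CYC1 and CYCS. The rule found 110 members among 58096 gene identifiers. Of these, 46 were assigned to complex I, 4 to complex II, 10 to complex III, 28 to complex IV and 21 to complex V, and the last is CYCS, cytochrome c. The rule reads symbols only, so it also takes assembly factors, tissue isoforms and 2 read-through genes. A low-count filter kept 100 of the 110, and all tests below concern those 100.

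ALL-SIL is an established human line from a T-cell acute lymphoblastic leukaemia, a leukaemia of immature T cells, that expresses the homeobox oncogene TLX1. The libraries fall into 3 groups of 3, labelled TLX1 siRNA1, TLX1 siRNA2 and NTC siRNA, and all 9 shared the line, the medium and the delivery of the siRNA by electroporation. Each label carries replicate numbers 1, 2 and 3. What NTC stands for, the sequence and dose of each siRNA, the time of harvest and what a replicate number marks were not given in the sources read here. Nothing in the labels says that replicates were separate cultures, so every p-value measures the spread between these libraries, which may be technical. In bulk RNA, fewer cells of a kind and less of an RNA per cell cannot be told apart.

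The respiratory chain sits in the inner mitochondrial membrane. Complexes I and II pass electrons from NADH and succinate to ubiquinone, complex III hands them through cytochrome c to complex IV, which reduces oxygen, and the proton gradient built on the way drives ATP synthesis by complex V. Most subunits are encoded in the nucleus and imported, and a core of them is encoded by the mitochondrial genome, so that each complex except complex II is built from both sources with the help of assembly factors that do not remain in it. Leukaemia cells that divide rapidly use the chain for ATP and also to regenerate the oxidised cofactors that biosynthesis needs.

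Each library held 58305492 to 99524663 gene counts, and the members took 0.852% to 0.930% of them. The targeted gene went against its label. TLX1 stood at 402, 452 and 401 CPM (counts scaled by the library total) in replicates 1 to 3 under the siRNA1 label. It stood at 198, 225 and 185 CPM under the siRNA2 label, against 179, 168 and 183 CPM under NTC. The siRNA1 libraries were thus the high ones, and the siRNA2 values lay just above the NTC values. The difference between the siRNA1 and NTC labels was a log2 fold change of 1.23 (SE 0.10, edgeR quasi-likelihood with Benjamini-Hochberg adjustment, adjusted p = 0.000449), and that between siRNA2 and NTC was 0.19 (SE 0.10, adjusted p = 1). All directions below are therefore given by label only, and none stands for the loss of TLX1. Of 15 T-lineage markers 13 stood above 1 CPM, led by CD3D, CD3E and CD7, and their summed level was 2654 to 3148 CPM, whereas 6 myeloid markers summed to 0.620 to 1.33 CPM.

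Levels of the members were read first, per kilobase of exon since genes differ in length (CPM per kb, mean of 9 libraries). The exon length joined the exons of all annotated transcripts of a gene, so a gene with long annotated forms reads lower. The order of genes and the medians below therefore depend on the annotation as well as on the counts. The structural subunits had a median of 29.1 CPM per kb over the 78 kept, and the assembly factors a median of 9.17 CPM per kb over the 17 kept. ATP5F1B, the catalytic beta subunit of ATP synthase, was the highest member at 331 CPM per kb, with 298 to 370 CPM per kb across libraries. NDUFS5, an accessory subunit of complex I, followed at 269 CPM per kb with a range of 220.0 to 307 CPM per kb, so these neighbours in the order overlapped between libraries. COX6B1, the complex IV subunit on the side of the intermembrane space, led its complex at 158 CPM per kb. UQCRH, the hinge protein of complex III, led complex III at 139 CPM per kb. SDHB, the iron-sulphur subunit of succinate dehydrogenase, led complex II at 26.1 CPM per kb. SDHA held more counts than SDHB over the 9 libraries, 125526 against 47366, and was divided by 8383 bases against 2462. CYCS stood at 39.0 CPM per kb.

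At the low end stood members whose counts depend on how reads were assigned. NDUFV2, a core iron-sulphur subunit of complex I, was lowest at 0.595 CPM per kb and held 1185 counts over all 9 libraries. The gene AP005263.1 overlaps it on the same strand, and reads that fall in more than 1 gene are listed as ambiguous. COX20, a chaperone for a mitochondrially encoded subunit of complex IV, was lowest in its complex at 0.814 CPM per kb. HNRNPU overlaps 72.0% of its exon length on the opposite strand. COX20 held 2940 unstranded counts, against 77814 when each read is assigned by strand and both strand counts are added. Since the kit does not mark strand, the strand sum also takes in reads of the overlapping gene and is no level of COX20. The same ratio was 8.19 for NDUFS7, the core subunit next to the quinone site of complex I, and 7.51 for ATP5ME, a membrane subunit of complex V overlapped by MYL5. It was 2.33 for NDUFA2, 1.91 for ATP5MG, 1.77 for NDUFB2 and 1.54 for UQCRQ, which are accessory subunits. NDUFA7, with 992 counts, and COX16, with 2045 counts, have same-strand partners that the strand columns do not separate. The unstranded levels of these members leave out every read in an overlap, and their differences between labels rest on the share of their reads that overlaps no other gene.

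**Figure D1:**
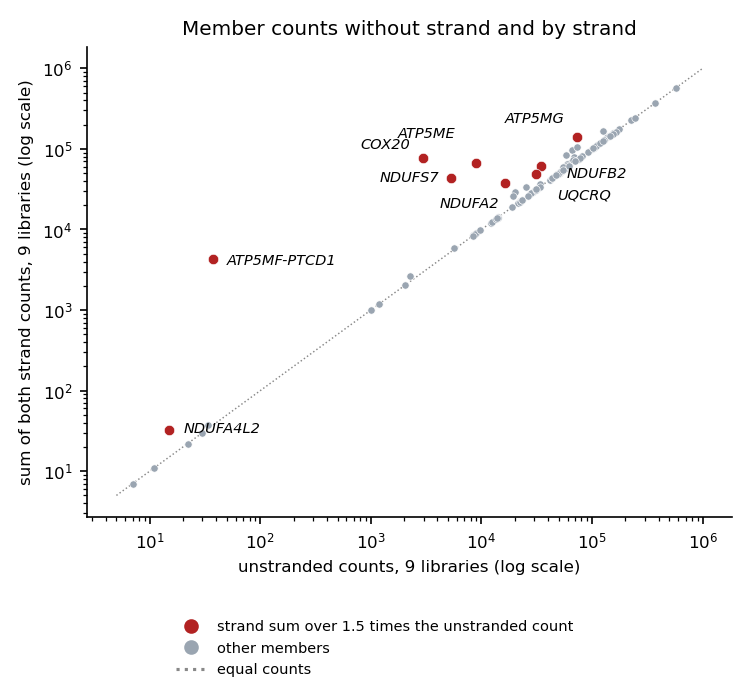
Summed counts over 9 libraries for each member, unstranded on the x axis and as the sum of both strand counts on the y axis (log scales, members with at least 1 count). Points on the dotted line have equal counts, and the 9 named members lie at more than 1.5 times the line, with COX20 at 77814 against 2940.

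Among the isoforms, ALL-SIL libraries held the widely expressed forms and almost none of the tissue forms. COX4I1 stood at 194 CPM, while COX4I2, known from lung, had at most 4 counts in any library. COX6A1 stood at 30.8 CPM and COX7A2 at 141 CPM, while the heart and muscle forms COX6A2 and COX7A1 had at most 0 and 6 counts. COX6B1, COX7B and COX8A stood at 148, 124 and 63.4 CPM, and the forms known from testis, COX6B2, COX7B2 and COX8C, had at most 6, 0 and 3 counts. NDUFA4, a subunit of complex IV despite its name, stood at 173 CPM, and NDUFA4L2, known as a hypoxia-induced relative, had at most 4 counts. The filter also removed ATP5MGL, a copy related to ATP5MG, and the read-through genes ATP5MF-PTCD1 and NDUFC2-KCTD14, so that the 10 members it removed were 7 tissue isoforms, 1 gene copy and 2 read-through genes. Other genes overlap 93.8% of the exon length of ATP5MF-PTCD1 and 100% of that of NDUFC2-KCTD14. Unstranded counting can give these 2 few reads or none, so their low counts do not show absence. A count of 0 allows up to 3 counts, or 0.0301 to 0.0515 CPM from the deepest to the shallowest library, for counting error only. The genes ATP5MC1, ATP5MC2 and ATP5MC3, which encode the same mature ring protein, stood at 39.4, 76.7 and 32.5 CPM per kb. UQCRHL, an intronless copy of UQCRH, stood at 6.01 CPM per kb, and reads shared by such near-identical copies make its level uncertain.

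The first comparison asks which members differ between the siRNA1 and NTC labels. All CPM other than those of TLX1 and of the limit for a count of 0 are scaled by TMM, which corrects library totals for composition. Only NDUFA5, an accessory subunit in the peripheral arm of complex I, passed the test, and it was lower. NDUFA5 (ENSG00000128609.14, chromosome 7 from 123536997 to 123558255, minus strand, GRCh38 and GENCODE 29) stood at 59.5, 57.9 and 51.7 CPM in replicates 1 to 3 labelled siRNA1, against 86.1, 78.3 and 78.9 CPM in those labelled NTC. All 3 values under the siRNA1 label lay below all 3 under the NTC label. It was 1.44-fold lower (on the log2 scale −0.52 ± 0.08 SE, adjusted p = 0.00878 in edgeR), with means of 56.4 ± 4.12 CPM and 81.1 ± 4.32 CPM (SD, n = 3 each). No annotated exon of another gene overlaps it, and its strand-summed and unstranded counts were equal. The call held with any 1 of the 9 libraries left out, at adjusted p of at most 0.0443, and was lost without the 3 replicate 1 libraries (adjusted p = 0.128, log2 fold change −0.52). These fits held no term for the replicate number. With that term, in a fit added after seeing the data and also without the replicate 1 libraries, the adjusted p was 4.05e-05 in edgeR (log2 fold change −0.52).

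Of the 100 members, 0 were thus higher and 1 was lower under the siRNA1 label, against 1.28% of all 18554 genes called either way (0.469% higher and 0.814% lower), so the share of members called is near that of all genes. The median log2 fold change was −0.02 over the members and 0.01 over all genes tested. Signs were negative for 64 members and positive for 36, and all member fold changes lay between −0.52 and 0.26. In complex I, 33 of 45 were negative, and in complex IV 13 of 21 were positive. Those signs are a description, since the genes are not independent replicates. Of the 15 T-lineage markers 11 were negative and 4 positive, and 1 was called, CD3G, a chain of the T-cell receptor complex, which was lower (log2 fold change −0.44, adjusted p = 0.0172 in edgeR).

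The replicate numbers paired the libraries: deviations from the group means correlated at 0.383 to 0.623 for all 9 same-numbered pairs of libraries and at −0.445 to 0.0693 for the others. With the replicate number as a block, 4 members were lower and 0 higher under the siRNA1 label than under NTC, against 11.4% of all genes called (5.48% higher and 5.93% lower). Of the 15 T-lineage markers 1 was higher and 5 were lower in that fit, with CD7 (0.53) the higher and CD1A (−0.68), CD2 (−0.63) and CD3G (−0.44) among the lower, and the part of these markers in the results on members was not tested. The called members were NDUFA5, the complex I assembly factors NDUFAF2 and NDUFAF4, and CYCS. NDUFAF2, which binds a late assembly intermediate, stood at 8.22, 9.92 and 8.46 CPM under siRNA1, against 12.5, 13.0 and 12.4 CPM under NTC. The groups did not overlap, and the fold change missed the threshold without the block (log2 fold change −0.51 ± 0.12 SE, adjusted p = 0.0616 in edgeR) and passed it with the block (−0.52 ± 0.08 SE, adjusted p = 0.000101 in edgeR).

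CYCS encodes the soluble carrier between complexes III and IV, whose release into the cytosol activates caspases. It stood at 148, 163 and 151.5 CPM under siRNA1, against 173, 191 and 193 CPM under NTC, and the groups did not overlap. Its log2 fold change was −0.27 (SE 0.11, adjusted p = 0.405 in edgeR) without the block, and it was lower with it (−0.27 ± 0.07 SE, adjusted p = 0.0182 in edgeR). NDUFAF4, which acts with NDUFAF3 on the arm that reduces quinone, stood at 24.4, 31.8 and 25.3 CPM under siRNA1, against 31.0, 35.7 and 32.7 CPM under NTC. Here the replicate 2 library labelled siRNA1 lay inside the NTC range, and within each replicate number the siRNA1 library was the lower. NDUFAF4 had an adjusted p of 0.472 without the block and 0.0116 with it (edgeR, log2 fold change −0.29 in both). Groups that did not overlap were found for 6 members, against 15.8% of all genes tested (7.57% higher and 8.27% lower): CYCS, NDUFA5, NDUFAF2, NDUFAF8 and SDHD on the lower side and NDUFAF7, the methyltransferase that modifies a complex I subunit, on the higher side. NDUFAF8, the partner of the assembly factor NDUFAF5, stood at 43.2, 39.8 and 37.2 CPM under siRNA1, against 50.04, 44.1 and 43.6 CPM under NTC. SDHD, a membrane anchor of complex II, stood at 40.4, 37.5 and 39.6 CPM under siRNA1, against 41.3, 44.9 and 46.7 CPM under NTC. Their gaps between groups were under 1 CPM, and neither passed the test.

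**Figure D2:**
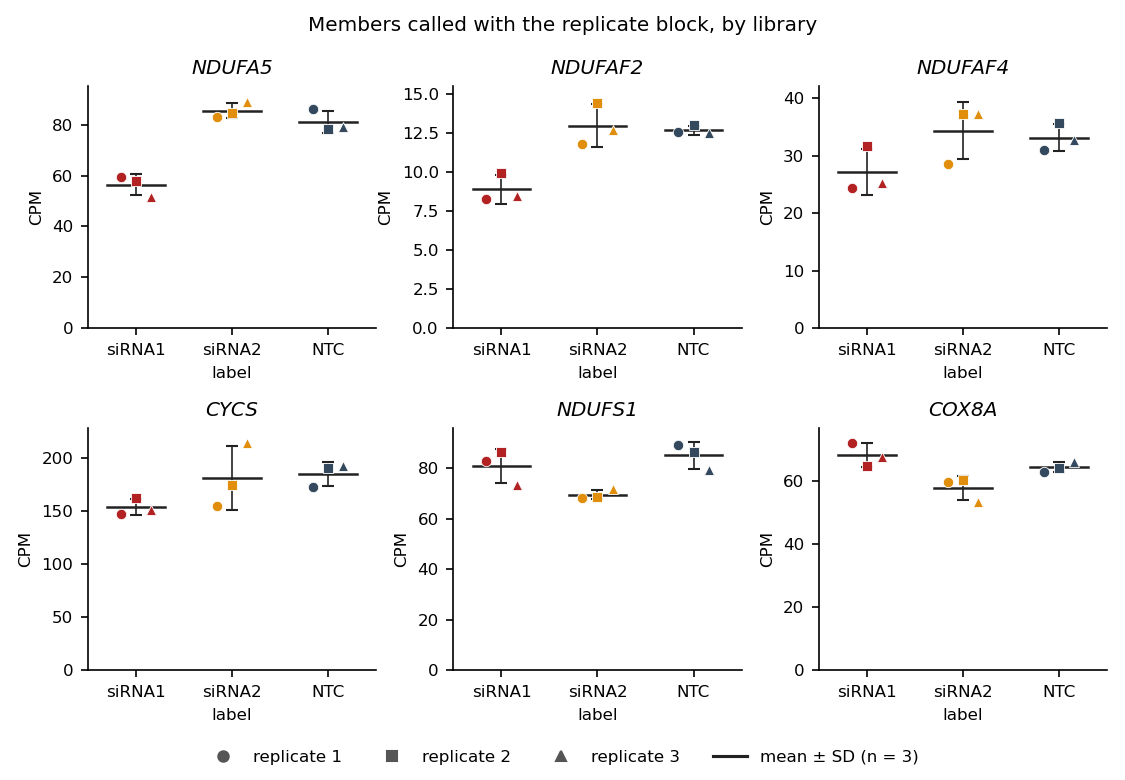
CPM of 6 members in each library, by label on the x axis and replicate number as marker, with the mean and SD of 3 libraries as black lines. NDUFA5 lies at 51.7 to 59.5 CPM under siRNA1, below every library of both other labels, and NDUFS1 and COX8A are lowest under siRNA2.

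The second comparison asks the same of TLX1 siRNA2. No member was called, and 0 of all 18554 genes were called (0%) by edgeR quasi-likelihood. At an unadjusted p under 0.05 there were 392 genes, 1 of them a member, and over all genes DESeq2 called 4, limma-voom 0 and the replicate block 28 (0.151%), with 0 members in each. By direction the block called 0.0862% of genes higher and 0.0647% lower. The member with the smallest p was NDUFS1, the largest core subunit of complex I and carrier of iron-sulphur clusters. It stood at 68.1, 68.6 and 71.6 CPM under siRNA2, against 89.3, 86.4 and 79.2 CPM under NTC. The groups did not overlap, with a log2 fold change of −0.29 ± 0.09 SE, adjusted p = 1 in edgeR.

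COX8A, the smallest subunit of complex IV, and COX14, which couples translation of a mitochondrial subunit to its assembly, came next. COX8A stood at 59.6, 60.5 and 53.2 CPM under siRNA2, against 63.0, 64.2 and 66.1 CPM under NTC (log2 fold change −0.16 ± 0.08 SE, adjusted p = 1 in edgeR). COX14 stood at 18.7, 17.7 and 17.4 CPM under siRNA2, against 22.8, 18.8 and 20.5 CPM under NTC (log2 fold change −0.21 ± 0.11 SE, adjusted p = 1 in edgeR). These 3 were the only members whose groups did not overlap, and all 3 were lower, against 5.58% of all genes tested (2.86% higher and 2.72% lower). NDUFA5 stood at 83.2, 84.6 and 88.8 CPM under siRNA2, inside or above the NTC values, with a log2 fold change of 0.08 ± 0.08 SE, adjusted p = 1 in edgeR. The median over the members was −0.01, against −0.002 over all genes. This comparison and the siRNA1 comparison share the NTC libraries, so their fold changes are not independent of each other.

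**Figure D3:**
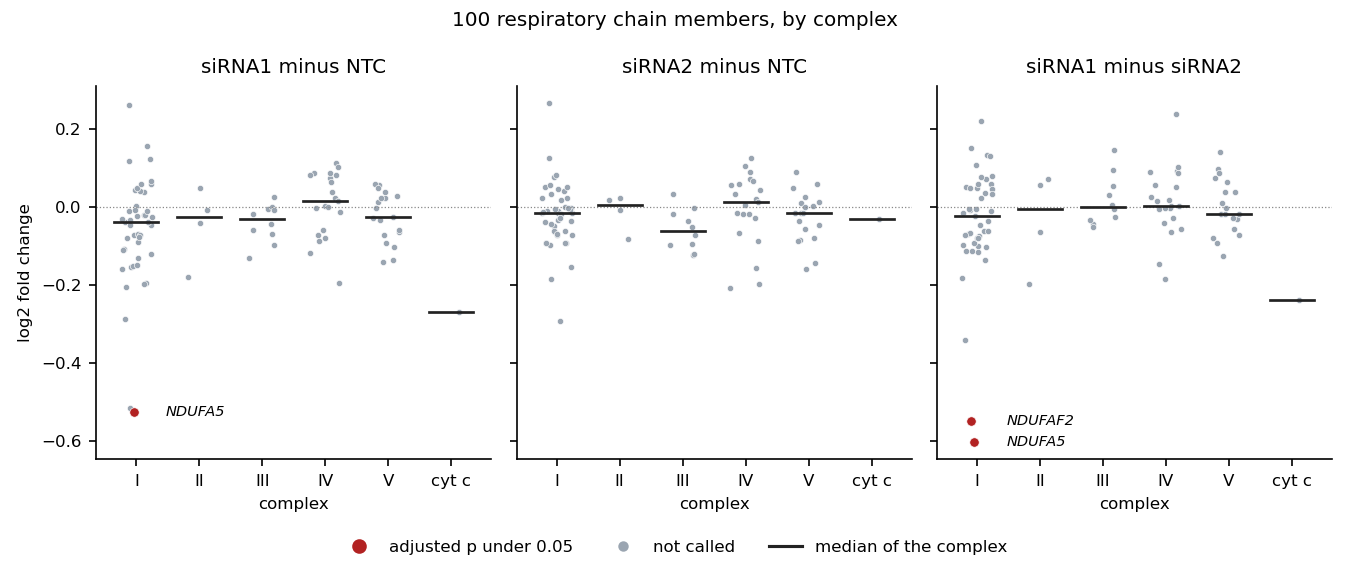
Log2 fold changes of the 100 kept members by complex in the 3 comparisons between labels, with called members in red, the others in grey and a black line at the median of each complex. All points lie between −0.60 and 0.27. NDUFA5 is called in both comparisons that involve siRNA1 and NDUFAF2 in the one between siRNA1 and siRNA2.

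The third comparison sets the siRNA labels against each other. NDUFA5 was 1.52-fold lower under siRNA1 than under siRNA2 (on the log2 scale −0.60 ± 0.08 SE, adjusted p = 0.00546 in edgeR). NDUFAF2 stood at 8.22, 9.92 and 8.46 CPM under siRNA1, against 11.8, 14.4 and 12.7 CPM under siRNA2, and was 1.46-fold lower (on the log2 scale −0.55 ± 0.12 SE, adjusted p = 0.0493 in edgeR). Neither overlapped between the labels. Without the replicate block, the NDUFAF2 call was lost with any 1 of the 9 libraries left out, at adjusted p between 0.0614 and 0.211. The 2 called members compare with 1.08% of all genes called (0.345% higher and 0.738% lower).

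With the replicate block 6 members were called between the siRNA labels, against 10.6% of all genes (5.29% higher and 5.27% lower). NDUFA5, NDUFAF2, NDUFAF4 (log2 fold change −0.34 ± 0.07 SE, adjusted p = 0.00384 in edgeR) and CYCS (−0.23 ± 0.07 SE, adjusted p = 0.0475 in edgeR) were lower under siRNA1. COX8A (0.24 ± 0.07 SE, adjusted p = 0.026 in edgeR) and NDUFS1 (0.22 ± 0.07 SE, adjusted p = 0.0437 in edgeR) were higher under siRNA1. CYCS showed the widest spread of these within a label, with 155, 175 and 214.5 CPM under siRNA2. Without the replicate 3 library labelled siRNA2, its log2 fold change, without the block, was −0.10, in place of −0.24. Groups that did not overlap were found for 5 members, against 14.4% of all genes (7.19% higher and 7.23% lower): NDUFA5 and NDUFAF2 below, and COX8A, NDUFS1 and ATP5IF1, the inhibitor of ATP synthase, above.

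Summed over its members, no complex separated the labels. Complex I summed to 2201 ± 153 CPM under siRNA1 and 2253 ± 100.1 CPM under siRNA2, against 2288 ± 111 CPM under NTC (SD, n = 3 each). Complex IV summed to 1932 ± 189.9 and 1907 ± 86.2 CPM under siRNA1 and siRNA2, against 1935 ± 126 CPM under NTC. Complex V summed to 3187 ± 191 and 3208 ± 183 CPM, against 3272 ± 29.8 CPM under NTC. In each case the difference between labels was smaller than the SD under the siRNA1 label. Across all 9 libraries the highest sum was 1.18 times the lowest for complex I, 1.12 times for complex II, 1.16 times for complex III, 1.22 times for complex IV and 1.15 times for complex V.

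**Figure D4:**
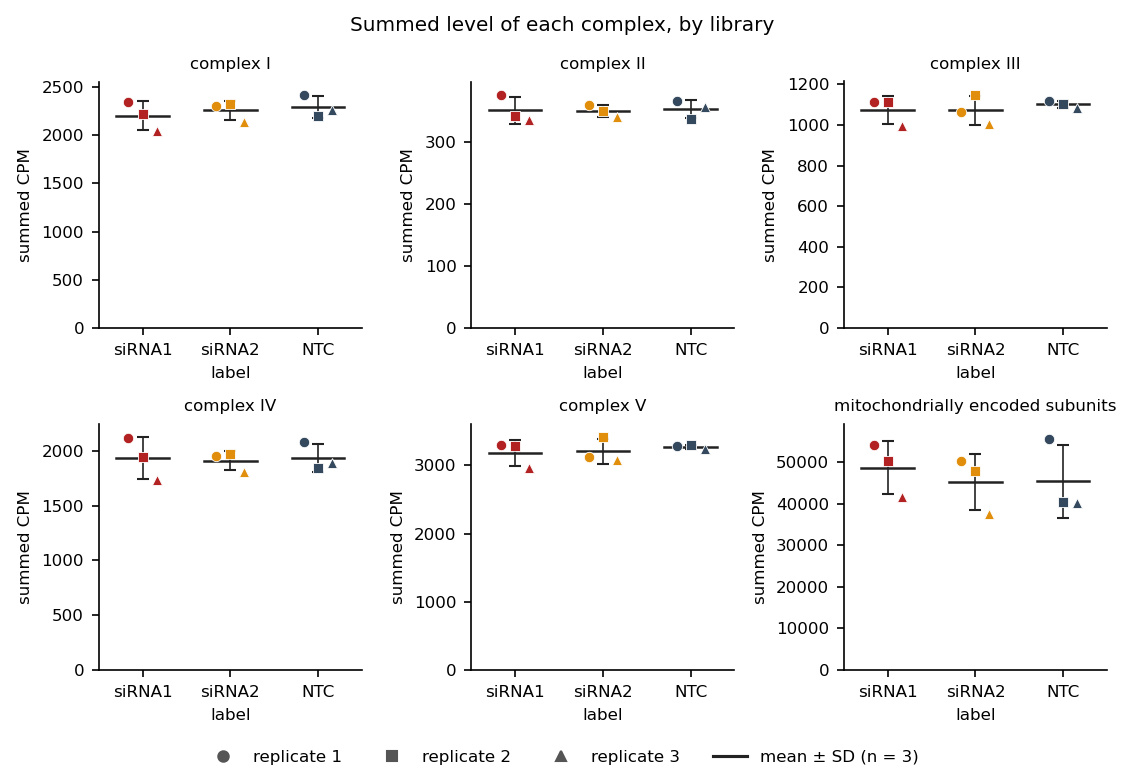
Summed CPM of the members of each complex, and of the 13 subunits encoded by mitochondrial DNA, in each library by label, with replicate number as marker and the mean and SD of 3 libraries as black lines. Labels overlap in every panel, and within each label the mitochondrially encoded sum is highest in replicate 1.

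Single members varied little as well. The SD of log2 CPM over the 9 libraries had a median of 0.126 over the 100 members, against 0.207 over all genes kept. At a mean of at least 10 CPM it was 0.125 over 93 members and 0.133 over 8930 genes. The most variable member was COX7B, with an SD of 0.295, followed by NDUFA5 with 0.293. The isoform COX7A2 (0.06) and the ring gene ATP5MC3 (0.0596) were among the steadiest.

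More members differed by replicate number than by label. In the fit with label and replicate number, 23 members were higher and 9 lower in replicate 1 than in replicates 2 and 3, against 21.3% of all genes called either way (10.9% higher and 10.4% lower). Over genes with at least 1 CPM in 3 libraries, where nearly all members lie, 26 members were higher and 9 lower, against 27.8% of those genes (14.2% higher and 13.6% lower). With library size alone in place of TMM scaling the split of called members was 16 higher and 12 lower, so the balance between directions depends on the scaling. The count fell to 8 without the replicate 1 library labelled siRNA1, to 8 without that labelled NTC, and to 20 without the replicate 3 library labelled siRNA1. In those 3 fits 10.72%, 11.85% and 18.36% of all genes were called, in the same order. Without either of those replicate 1 libraries the share of members was thus below that of all genes. The median over the members was 0.04, against −0.01 over all genes.

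NDUFB10, an accessory subunit in the membrane arm of complex I, had the smallest p. It stood at 90.7, 95.2 and 96.6 CPM in the replicate 1 libraries labelled siRNA1, siRNA2 and NTC, against 81.8, 93.0 and 71.2 CPM in replicate 2 and 61.7, 59.0 and 65.9 CPM in replicate 3 in the same label order. Within every label the replicate 1 library was the highest. The log2 difference was 0.40 (SE 0.07, adjusted p = 0.000164 in edgeR). ATP5MC1, a gene for the proton-carrying ring of ATP synthase, stood at 116, 116 and 118 CPM in replicate 1, against 97.9, 107 and 95.2 CPM in replicate 2 and 85.2, 91.9 and 99.3 CPM in replicate 3, and the replicate 1 libraries lay above all 6 others (0.28 ± 0.06 SE, adjusted p = 0.00107 in edgeR).

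Among complexes I to V, complex IV held the largest share of calls, with 10 of 21 higher and 2 lower. Over all genes 10.9% were higher and 10.4% lower. COX4I1, the subunit that binds ATP as a regulator, stood at 224, 210.5 and 218 CPM in replicate 1, against 195, 201 and 183 CPM in replicate 2 and 173, 159 and 181 CPM in replicate 3 (log2 difference 0.26 ± 0.06 SE, adjusted p = 0.00193 in edgeR). Its replicate 1 libraries also lay above all 6 others. COX7B, a small transmembrane subunit, stood at 140.5, 137 and 146 CPM in replicate 1, against 143, 152 and 108.5 CPM in replicate 2 and 88.0, 99.7 and 101 CPM in replicate 3. Only its replicate 3 libraries and the NTC library of replicate 2 lay low. The log2 difference was 0.32, and COX6B1 (0.27) and COX5A (0.22), another structural subunit, were higher too. COX7C (−0.20), another subunit, and COX20 (−0.31) were lower, and the COX20 difference turned to 0.05 (adjusted p = 0.596) with strand-summed counts.

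In complex I, 8 of 45 were higher and 6 lower, against 10.9% of all genes higher and 10.4% lower. NDUFAF6 (log2 difference 0.22), an assembly factor, and NDUFA6 (0.22) were among the higher, and NDUFA10 (−0.22 ± 0.05 SE, adjusted p = 0.00453 in edgeR), an accessory subunit of the membrane arm, had the smallest p of the lower. It stood at 58.9, 57.2 and 59.4 CPM in replicate 1, against 67.1, 70.1 and 71.6 CPM in replicate 2 and 66.8, 66.8 and 68.0 CPM in replicate 3, with no overlap. NDUFA9 (−0.28) in the quinone-reducing arm, the accessory subunits NDUFA13 (−0.35) and NDUFB6 (−0.24), and the assembly factors NDUFAF1 (−0.21) and NDUFAF4 (−0.24) completed the lower ones, and CYCS was lower as well (−0.19). Other genes overlap 10.6% of the exon length of NDUFA9 and 21.0% of that of NDUFA13, whose counts leave out reads in those parts. Of complex V, 3 of 19 were higher, ATP5PF (0.27) of the stalk among them, and 0 were lower. SDHA, the flavoprotein that oxidises succinate, stood at 194.5, 187 and 184 CPM in replicate 1, against 166, 171 and 154 CPM in replicate 2 and 162, 145 and 167 CPM in replicate 3, so that its replicate 1 libraries lay above all others. It was the 1 of 4 called in complex II (log2 difference 0.23), and 1 of 10 was called in complex III, on the higher side. By role, 19 of 78 structural subunits were higher and 5 lower, and of 17 assembly factors 3 were higher and 3 lower. In that same fit 10.9% of all genes were higher and 10.4% lower. A separate fit, of genes with at least 1 CPM in 3 libraries, gave 14.2% higher and 13.6% lower.

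Replicate 2 was set against replicate 3 in the same fit, where 17 members were higher and 6 lower in replicate 2, against 20.6% of all genes called (9.91% higher and 10.7% lower). NDUFS6, an accessory subunit that binds zinc, had the smallest p, at 70.4, 79.6 and 71.5 CPM in the replicate 2 libraries labelled siRNA1, siRNA2 and NTC, against 52.7, 56.3 and 62.3 CPM in replicate 3. All replicate 2 values lay above all replicate 3 values, with a log2 difference of 0.37 (SE 0.07, adjusted p = 0.000595 in edgeR). COX7B (0.48), NDUFB10 (0.39), SDHB (0.34), COX10 (0.30, a farnesyltransferase of haem synthesis), NDUFS5 (0.27), COX6B1 (0.27), UQCRC2 (0.23, a core protein of complex III), UQCRFS1 (0.23, the Rieske protein) and ATP5F1B (0.23) were the next by p among the higher members, each as a log2 difference. SDHB stood at 69.5, 74.9 and 64.0 CPM in replicate 2, against 51.3, 55.0 and 58.8 CPM in replicate 3, and ATP5F1B at 824, 859.7 and 818 CPM, against 692, 703 and 745 CPM. For both genes every replicate 2 library was the higher.

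The lower members were NDUFB6, COX15, SDHC, COX7C, NDUFB5 and NDUFAB1. NDUFB6, an accessory subunit of the membrane arm, stood at 30.4, 31.5 and 41.6 CPM in replicate 2, against 41.7, 50.7 and 46.3 CPM in replicate 3, with no overlap (log2 difference −0.43, SE 0.08, edgeR adjusted p = 0.00112). SDHC, a membrane anchor of complex II, stood at 68.9, 66.7 and 74.2 CPM in replicate 2, against 83.0, 84.5 and 83.0 CPM in replicate 3 (−0.26). COX15, which makes haem a, differed by −0.27, NDUFB5, of the membrane arm, by −0.26, and NDUFAB1, the mitochondrial acyl carrier protein, by −0.20. SDHB and SDHC thus moved in opposite directions within complex II. Over genes with at least 1 CPM in 3 libraries, 16 members were higher and 10 lower, against 28% of those genes (12.8% higher and 15.1% lower). With library size alone 10 members were higher and 11 lower, so this balance depends on the scaling as well. The count was 6 without the replicate 2 library labelled siRNA1, 7 without that labelled siRNA2, 38 without that labelled NTC and 12 without the replicate 3 library labelled siRNA1.

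**Figure D5:**
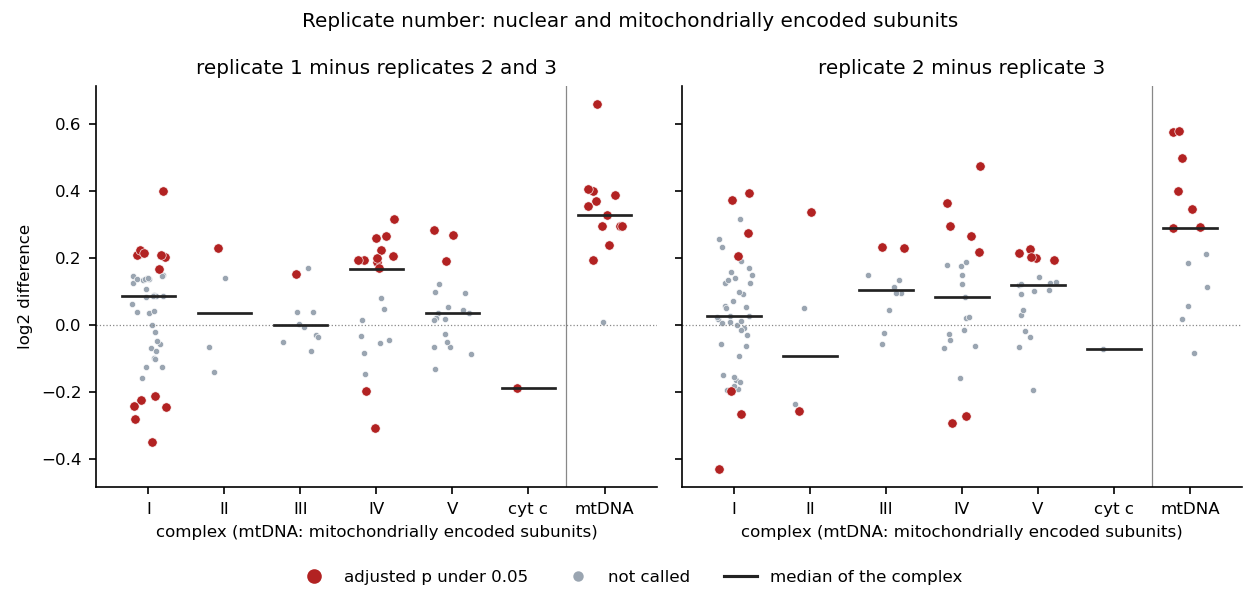
Log2 differences by replicate number for the 100 kept members, by complex, and for the 13 subunits encoded by mitochondrial DNA, with called genes in red and a black line at the median of each set. In replicate 1 against replicates 2 and 3 the mitochondrially encoded subunits have a median of 0.33, and complex IV a median of 0.17.

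The 13 subunits that mitochondrial DNA contributes to the same complexes were compared next. Summed, they stood at 54010, 50330 and 55510 CPM in the replicate 1 libraries labelled siRNA1, siRNA2 and NTC, against 50370, 47750 and 40480 CPM in replicate 2 and 41700, 37610 and 40130 CPM in replicate 3. In replicate 1 against replicates 2 and 3, 12 of the 13 were higher, by up to a log2 difference of 0.66 (MT-ATP8, SE 0.08, edgeR adjusted p = 2.43e-06), and 7 of 13 were higher in replicate 2 than in replicate 3. MT-ND6 (0.01) was the member of that list not called in replicate 1. None of the 13 was called between labels by edgeR, with or without the replicate block. At an unadjusted p under 0.05 there were 0 in each comparison without the block and, with it, 2 between siRNA1 and NTC, 1 between siRNA2 and NTC and 2 between siRNA1 and siRNA2. Their median log2 fold change was 0.10 between siRNA1 and NTC and 0.11 between siRNA1 and siRNA2, where all 13 were positive and the sum was higher under siRNA1 within each of the 3 replicate numbers. Between siRNA1 and NTC 12 were positive and 1 negative. There the sum was lower under siRNA1 in replicate 1 and higher in replicates 2 and 3. The 13 genes are not independent replicates. Markers moved with the replicate numbers too: of 15 T-lineage markers 4 were higher and 3 lower in replicate 1. Among the higher were TRBC1 (log2 difference 0.30) and CD5 (0.25). Among the lower were CD1E, a marker of cortical thymocytes, at −0.80 (SE 0.06, adjusted p = 1.92e-09 in edgeR) and PTCRA, the pre-T-cell receptor chain, at −1.97. CD1A, a related marker of the list, did not share that fall. It stood at 46.36, 68.85 and 81.15 CPM in replicate 1 in the same label order. Its values were 30.99, 46.26 and 42.67 CPM in replicate 2 and 54.23, 85.41 and 91.69 CPM in replicate 3. PTCRA lay near the floor, at 0.17, 0.14 and 0.11 CPM in the replicate 1 libraries labelled siRNA1, siRNA2 and NTC and at most 0.77 CPM in the others. Of 4 tested B-lineage markers, which summed to 19.9 to 32.5 CPM, 3 were higher and 1 lower, and of 4 tested myeloid markers 2 were lower. The mitochondrial genome took 5.40% to 5.83% of gene counts in replicate 1, 4.48% to 5.58% in replicate 2 and 4.24% to 4.68% in replicate 3. Their part in the replicate differences of the members was not tested.

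Genes that serve the chain without carrying its symbols were counted from lists of the same pathway. Of 44 assembly factors outside the rule, 1 was called between the siRNA1 and NTC labels. It was TMEM186, a complex I assembly factor, at 14.6, 14.7 and 15.3 CPM under siRNA1, against 19.7, 20.3 and 19.4 CPM under NTC (log2 fold change −0.41 ± 0.08 SE, adjusted p = 0.0376 in edgeR). The groups did not overlap, and the median over the list was −0.03, against 0.01 over all genes. With the replicate block 3 of 44 were lower, close to the 5.93% of all genes that were lower in that fit: TMEM186, SURF1 (−0.27), a complex IV assembly factor, and TMEM70 (−0.22), of complex V assembly. Of 35 genes of the citric acid cycle and of electron entry to ubiquinone, 1 was called in the same comparison, IDH3A, the catalytic subunit of the NAD-dependent isocitrate dehydrogenase. It stood at 27.6, 28.3 and 24.8 CPM under siRNA1 and at 41.5, 45.7 and 39.4 CPM under siRNA2, against 43.9, 39.1 and 40.1 CPM under NTC. It was 1.53-fold lower under siRNA1 than under NTC (on the log2 scale −0.61 ± 0.09 SE, adjusted p = 0.0075 in edgeR) and 1.57-fold lower than under siRNA2 (−0.65 ± 0.09 SE, adjusted p = 0.00668 in edgeR). The median over that list was 0.01 between siRNA1 and NTC, and with the block 3 of 35 were higher and 4 lower, against 5.48% of all genes higher and 5.93% lower. In replicate 1 against replicates 2 and 3, 2 of the 44 assembly factors were higher and 3 lower, and of the 35 genes 5 were higher and 1 lower, against 21.3% of all genes called either way (10.9% higher and 10.4% lower).

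A further list, of mitochondrial biogenesis, holds nuclear transcription factors and coactivators beside proteins that copy or transcribe mitochondrial DNA and matrix proteases. Of its 22 tested genes 0 were called between labels by edgeR, with 7 at an unadjusted p under 0.05 between siRNA1 and NTC. Their median log2 fold change there was −0.15, with 21 of 22 negative, against 0.01 over all genes. With the replicate block 7 of 22 were lower and 0 higher, against 5.93% of all genes lower and 5.48% higher in that fit. CLPP, a protease of the matrix (−0.39 ± 0.08 SE, adjusted p = 0.0016 in edgeR), PPARGC1B, a coactivator of respiratory genes (−0.33 ± 0.07 SE, adjusted p = 0.00178 in edgeR), TWNK, the mitochondrial helicase (−0.23), and POLG2, a polymerase subunit (−0.23), had the smallest p under the block. Without the block, where 0 of the 22 were called between siRNA1 and NTC, the nuclear transcription factors NRF1 (−0.06), GABPA (−0.11), ESRRA (−0.08) and YY1 (−0.07) were not called either. This does not set them apart from CLPP (−0.39) and PPARGC1B (−0.33), which were not called in that fit. Between siRNA2 and NTC 14 of the 22 genes were negative, with a median of −0.02 and 0 called. In replicate 1 against replicates 2 and 3, 0 of 22 were higher and 4 lower, TWNK among them (−0.28), against the same 10.9% of all genes higher and 10.4% lower.

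The 3′ UTR of NDUFA5 holds the 7-base word GCAGTAC, and the word is shown in the members that carry it because the lower genes of the siRNA1 libraries hold it often. It came from an earlier search of these same libraries, so its counts describe and do not test. Of 132 other genes called lower under siRNA1 than under NTC, 35.6% hold it in the 3′ UTR, against 4.04% of 11883 genes not called. Of the 100 members 5 hold it (5%), close to the 4.38% of 12095 other genes searched. Each stretch below is 27 bases of the RNA's strand, written as DNA, from GENCODE 29 transcripts on GRCh38, with the word in capitals. The sites are at chr7:123541133-123541159 (minus strand) for NDUFA5, chr2:239958974-239959000 (minus) for NDUFA10, chr14:50330932-50330958 (plus) for ATP5S, chr7:140721943-140721969 (plus) for NDUFB2 and chr21:42910486-42910512 (plus) for the first of 3 copies in NDUFV3.
NDUFA5: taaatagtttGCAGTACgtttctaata
NDUFA10: ttatttcagaGCAGTACatgcgttcgt
ATP5S: ggatttaaaaGCAGTACaccaggccag
NDUFB2: taggttggcaGCAGTACtctggaaact
NDUFV3: gaagtttcttGCAGTACagggacgaag

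Among these 5, NDUFA5 alone was called. Between the siRNA1 and NTC labels the log2 fold changes of the other members were −0.05 for NDUFA10 (SE 0.10), 0.04 for ATP5S (SE 0.10), −0.12 for NDUFB2 (SE 0.11) and −0.01 for NDUFV3 (SE 0.08), the gene with 3 copies. NDUFAF2, NDUFAF4 and CYCS do not hold the word in 3′ UTRs of 82, 1791 and 3610 bases, and the NDUFAF2 transcript holds 1 copy outside its 3′ UTR. Among the other lists IDH3A (−0.61), SUCLG1 (−0.28), a subunit of succinate-CoA ligase, and COQ4 (−0.24), of ubiquinone synthesis, hold it once each, with log2 fold changes between siRNA1 and NTC in parentheses. SUCLG1 and COQ4 did not pass (edgeR adjusted p = 0.314 and 0.298).

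Promoters were searched because many members differed by replicate number, and because nuclear respiratory genes are known for sites of NRF1, of ETS-family factors such as GABP and of YY1. RefSeq (GRCh38.p14) gave a promoter window for 88 of 110 members, from 250 bases before to 50 bases after the start. The words were GCGCA, any base and GCGC for NRF1, CCGGAAG for ETS factors and AAGATGGC for YY1, on both strands. NRF1's word was in 22.7% of member windows and in 8.50% of 15755 windows of other protein-coding genes. The ETS word was in 27.3% and 14.2%, and the YY1 word in 13.6% and 3.85%, in the same order. Words were counted whether or not they overlapped another, and 45 of the 88 windows hold at least 1 of them.

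The examples shown are members called in the replicate comparison, with the word in capitals on the strand of the gene, so that CTTCCGG is the ETS word on the opposite strand. They are at chr16:85799687-85799713 (plus strand) for COX4I1, chr19:35648301-35648327 (plus) for COX6B1, chr21:25735068-25735094 (minus) for ATP5PF, chr5:218291-218320 (plus) for SDHA, chr3:119677503-119677532 (minus) for COX17 and chr22:42090730-42090757 (minus) for NDUFA6. COX17, a copper chaperone of complex IV, was higher in replicate 1 by a log2 difference of 0.19. SDHA holds 4 copies of the NRF1 word.
COX4I1: gccttgctctCTTCCGGtcgcgggaca
COX6B1: cctctctcagCTTCCGGctggtagtag
ATP5PF: gccaggggacCCGGAAGcacttaccct
SDHA: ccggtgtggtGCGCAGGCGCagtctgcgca
COX17: gggcctccttGCGCATGCGCtgaagggggc
NDUFA6: atgctttggcAAGATGGCggggagcggc

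The share of windows with a word was then read by replicate call. Of the members higher in replicate 1 than in replicates 2 and 3, 21 have a window and 52.4% of those hold at least 1 word. The shares were 33.3% of 9 among the lower members and 57.7% of 52 among those not called. NDUFA5, NDUFAF2 and CYCS hold none of the 3 words in their windows, and NDUFAF4 holds the ETS word. Only exact words inside the window were counted, so a missing word does not show that a site is absent.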

How the data were processed

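PolyA+ RNA of 9 libraries was analysed from deposited counts: whole reads per gene, not normalized, 1 table per library with 4 summary lines, 1 unstranded and 2 strand columns, per the file headers and values. Per the labels' protocols the kit does not mark strand, so the unstranded count was used. The layout is that of STAR's gene counts. Neither the aligner nor its annotation is given in the sources used here. Per the submitters' processing notes, reads were placed on GRCh38. Of 58096 identifiers 57447 matched GENCODE 29, and the 649 others held 0.0317% of counts. Between 75.5% and 77.6% of reads fell in genes and 6.68% to 7.25% were ambiguous. Reads are not independent molecules.

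edgeR 4.0.16 under R 4.3.3 gave all main tests, with TMM, filterByExpr by group (minimum count 10, minimum total 15), 18554 genes kept, a quasi-likelihood test in 1 fit of 3 groups, and Benjamini-Hochberg adjusted p under 0.05. Replicate numbers were compared in a fit of group plus number. CPM are TMM-scaled, except those of TLX1 and of the limit for a count of 0, which use the library total. SEs were derived from the fold change and the F statistic. Code was tested on simulated data. Replicates were not repeats of a library (chi-square per degree of freedom 36.0 to 60.7). Alternatives were RLE factors, library size alone, other filters, DESeq2 1.42.0, limma-voom 3.58.1, the replicate block, only the groups compared, each library or the replicate 1 libraries left out and, added after seeing the data, strand-summed counts and the block without replicate 1. Named were members past the threshold (up to 10 each way), otherwise the 3 with the smallest p, the highest and lowest per complex, isoforms, copies, removed members and up to 4 per list. Members and lists were chosen with earlier results of these data known.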

Additional observations from a re-analysis of the deposited data

Results flagged for a closer look

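2 members differed in their response by siRNA label, by the edgeR test of the difference itself. Over all 18554 genes 1.08% were called in that comparison (0.345% higher and 0.738% lower). NDUFA5 stood at 59.5, 57.9 and 51.7 CPM under siRNA1 and at 83.2, 84.6 and 88.8 CPM under siRNA2, a log2 difference of −0.60 (SE 0.08, edgeR adjusted p = 0.00546), lower in 3 of 3 libraries. NDUFAF2 differed by −0.55 (SE 0.12, edgeR adjusted p = 0.0493), also lower in 3 of 3 libraries. The NDUFAF2 call was lost in 13 of 20 alternatives, among them each of the 9 that left out 1 library (adjusted p of 0.0614 to 0.211). Those 9 fits had no replicate block, and with the block over all 9 libraries the adjusted p was 6.4e-05 in edgeR.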

How the results depend on the processing

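Of 48 results on named members, 11 kept their side of the threshold under all alternatives run, and 1 reversed: the COX20 difference of replicate 1 against replicates 2 and 3 was 0.0509 with strand-summed counts. Members called between siRNA1 and NTC numbered 1, and 2 without a filter, with a CPM filter or by DESeq2, 4 with the replicate block, 0 without the replicate 1 libraries and 3 with the block and without them. Leaving out 1 library gave 1 to 1. The shares of all genes called were 1.28%, 1.66%, 1.94%, 2.98%, 11.4%, 0.40% and 6.07% in the same order. With 1 library left out they were 0.538% to 1.33%. Between siRNA1 and siRNA2 the members called numbered 2, and 1 with library size alone, limma-voom or only the groups compared, 6 with the replicate block and 0 without the replicate 1 libraries. Each fit that left out 1 library gave 1. The shares of all genes called were 1.08%, 0.986%, 1.01%, 0.64%, 10.6% and 0.176% in the same order. With 1 library left out they were 0.383% to 0.968%. Between siRNA2 and NTC the members called numbered 0 in each alternative, the replicate block included. For replicate 1 against replicates 2 and 3 leaving out 1 library gave 8 to 39 members, and for replicate 2 against 3 it gave 6 to 38. The shares of all genes called ranged from 10.72% to 23.77% and from 10.33% to 23.06% in those fits. The median of replicate 2 against 3 was 0.06, and 0.013 with library size alone. The cause of these changes was not tested. Fits with fewer libraries also have fewer degrees of freedom. NDUFAF2 between siRNA1 and NTC, at an adjusted p of 0.0616 in edgeR, passed without a filter (0.0233), with a CPM filter (0.0465) and by DESeq2 (0.00148). Overlapping genes limit the counts of COX20, NDUFS7, ATP5ME, NDUFV2, NDUFA7 and COX16, and of the removed read-through genes ATP5MF-PTCD1 and NDUFC2-KCTD14.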
